A study of Homo sapiens with 12 samples.

Results

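The 9 genes described here make the parts that display peptides on MHC class I molecules: the heavy chains HLA-B, HLA-C, HLA-E and HLA-F, their light chain B2M, the peptide transporter subunits TAP1 and TAP2, the loading chaperone tapasin (TAPBP) and the trimming enzyme ERAP1. They were chosen by gene name, and all 9 were among the 25914 genes that the deposited RNA-seq comparisons of RPE-1 and HCT116 cells both list. RPE-1 hTERT is a noncancerous human line, immortalized with telomerase, of retinal pigment epithelium, and HCT116 is a line from a colon cancer. Both carry a wild-type genotype per the labels. Each line received 10 µM Nutlin-3a or the solvent DMSO for 24 h, with 3 libraries in each of the 4 groups and 12 in all. Nutlin-3a occupies the p53 pocket of MDM2, the ligase that marks p53 for degradation, and p53 builds up.

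Class I molecules carry peptides from proteins of the cell interior to its surface, where CD8 T cells read them and natural killer cells sense whether the molecules are there. The proteasome cuts the proteins, TAP1 and TAP2 pump the peptides into the endoplasmic reticulum, ERAP1 trims them to length, and tapasin holds an empty heavy chain with B2M beside the transporter until a peptide fits. Interferon raises these genes through IRF1 and the coactivator NLRC5, and TAP1 and ERAP1 have also been described as targets of p53.

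The values are the authors' own: a log2 fold change (log2FC) of Nutlin-3a over DMSO with its standard error (SE), and a DESeq2 p-value adjusted over all listed genes. A gene was called at an adjusted p under 0.05. The 3 libraries of a group are combined in these values, so values per library and depth cannot be given. The SE carries a spread between libraries, which may include libraries beyond the groups compared. The level given beside them, the base mean, is a mean normalized count over more libraries than these 12, so it ranks genes but is not the level in either line. The treatment check was clear in both lines: MDM2, a p53 target and its own brake, rose with a log2FC of 3.95 ± 0.11 (SE) in RPE-1 and 4.14 ± 0.11 in HCT116, and the cell cycle inhibitor CDKN1A with 3.94 ± 0.22 and 4.12 ± 0.22. In bulk RNA, more cells that express a gene and more RNA per cell cannot be told apart.

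TAP1 and ERAP1 rose and TAP2 fell in both lines, whereas HLA-B, HLA-C, HLA-E and TAPBP were called higher in RPE-1 alone and HLA-F and B2M in neither. Of the 9 members, 6 rose in RPE-1, 1 fell and 2 were not called. In HCT116, 2 rose, 1 fell and 6 were not called. At an unadjusted p under 0.05 by DESeq2 the lines had 8 and 4 of the 9. At that limit, 4774 of the 13990 genes at base means of 100 or more were higher and 3330 lower in RPE-1. In HCT116 these counts were 3873 and 3089. Among all 25914 genes in RPE-1, 19.3% were called higher and 13.6% lower, and in HCT116 14.9% and 12.2%. The members are well expressed, with base means from 412 for TAP2 to 12405 for HLA-B, so the 13990 genes at base means of 100 or more are the closer background: there RPE-1 had 29.7% higher and 20.8% lower, HCT116 22.4% and 18.4%. The median log2FC of the 9 members was 0.47 in RPE-1, against 0.09 for genes of such base means, and 0.08 in HCT116, against 0.06. In HCT116 the share of members called higher was thus close to that background.

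**Figure D1:**
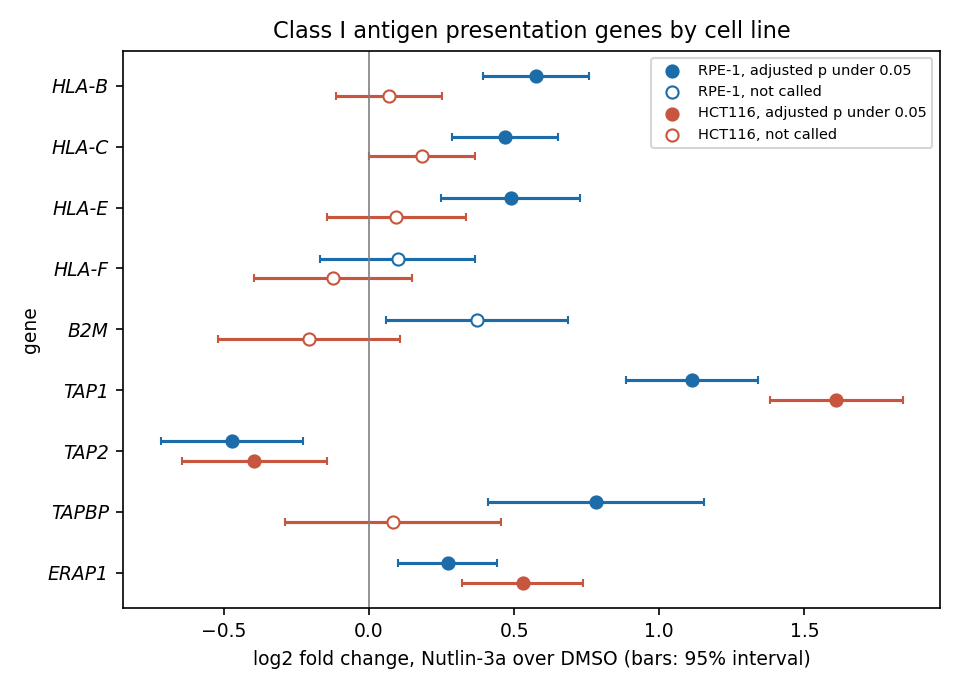
Log2 fold change of Nutlin-3a over DMSO (horizontal axis) for the 9 genes, with RPE-1 in blue and HCT116 in red, 3 libraries per treatment. Bars are 95% intervals from the deposited standard errors and filled points have an adjusted p under 0.05. TAP1 lies farthest to the right in both lines, TAP2 lies left of 0 in both, and the blue points of HLA-B, HLA-C, HLA-E and TAPBP are filled where the red ones are open.

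The heavy chains bind the peptide and face the T cell receptor. HLA-B (ENSG00000234745), one of the classical presenting chains, lies on the minus strand of chromosome 6 at 31353872 to 31367067 (GRCh38). In RPE-1 it rose 1.49-fold (95% interval 1.31 to 1.69), a log2FC of 0.57 ± 0.09 (SE, 3 libraries per treatment) with an adjusted p of 9.03e-09 by DESeq2 as the authors ran it. Its log2FC in HCT116 was 0.07 ± 0.09 with an adjusted p of 0.677. Its sign there turned to -0.01 when the median of genes at base means of 10 or more was taken out. HLA-B had the highest base mean of the 9, and its change was called in RPE-1 only.

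HLA-C (ENSG00000204525, chromosome 6, 31268749 to 31272130, minus strand) presents peptides too and is a main ligand of inhibitory receptors on natural killer cells. It rose 1.38-fold in RPE-1 (1.22 to 1.57; log2FC 0.47 ± 0.09, adjusted p 3.54e-06). In HCT116 its log2FC was 0.18 ± 0.09, which had an unadjusted p of 0.0496 and an adjusted p of 0.142. HLA-E (ENSG00000204592, chromosome 6, 30489509 to 30494194, plus strand), a chain that presents leader peptides of other class I molecules to the NKG2 receptors, rose 1.40-fold in RPE-1 (1.19 to 1.65; log2FC 0.49 ± 0.12, adjusted p 0.000344). Its log2FC in HCT116 was 0.09 ± 0.12 with an adjusted p of 0.662.

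HLA-F (ENSG00000204642, chromosome 6, 29722775 to 29738528, plus strand), a nonclassical chain known to reach the surface without peptide, stood apart from the other heavy chains in that it was called in neither line. Its log2FC was 0.10 ± 0.14 in RPE-1, with an adjusted p of 0.662, and -0.12 ± 0.14 in HCT116, with an adjusted p of 0.586. Heavy chain genes are close copies of each other and vary between people, and the authors counted only reads that map to 1 place, so reads of an allele that differs from the reference can be lost or counted on a copy, and the split between these genes is uncertain.

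B2M (ENSG00000166710, chromosome 15, 44711358 to 44718851, plus strand), the light chain that every class I heavy chain needs, was at the threshold in RPE-1. Its log2FC there was 0.37 ± 0.16 with an adjusted p of 0.0583, which became 0.0479 when genes with base means under 10 were left out of the adjustment and 0.0381 when those under 100 were. In HCT116 its log2FC was -0.21 ± 0.16 with an adjusted p of 0.391. B2M lies head to head with PATL2, whose start is 35 bases away on the other strand and which had a base mean of 8.42 and log2FCs of 0.14 and -0.52, neither called.

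The response of the light and heavy chains was set against each other between the lines by dividing the difference of the log2FCs, RPE-1 minus HCT116, by its combined SE. Of the 20764 genes tested, at base means of 10 or more, 11.3% had a higher and 10.4% a lower log2FC in RPE-1 at an adjusted p under 0.05. HLA-B differed by 0.51 ± 0.13 (SE; adjusted p 0.00132) and B2M by 0.58 ± 0.23 (adjusted p 0.0485). HLA-C differed by 0.29, with a 95% interval of 0.03 to 0.54 and an adjusted p of 0.107, and HLA-E by 0.39, with an interval of 0.06 to 0.73 and an adjusted p of 0.0868. These intervals lay above 0, but HLA-C and HLA-E did not pass the adjusted threshold, so their calls in RPE-1 alone are not shown to be a difference between the lines. For HLA-F the interval ran from -0.16 to 0.60 around 0.22. The B2M difference was also not called without the limit on base mean, at an adjusted p of 0.0598.

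TAP1 (ENSG00000168394, chromosome 6, 32845209 to 32853816, minus strand), the transporter subunit described as a p53 target, had the largest change of the 9 in both lines. It rose 2.16-fold in RPE-1 (1.85 to 2.53; log2FC 1.11 ± 0.12, adjusted p 4.48e-20) and 3.05-fold in HCT116 (2.61 to 3.58; log2FC 1.61 ± 0.12, adjusted p 9.19e-42). Its log2FC ranked at place 2331 of all genes in RPE-1 and 1361 in HCT116. The rise was lower in RPE-1 by 0.50 on the log2 scale (difference -0.50 ± 0.16, adjusted p 0.0158), the opposite order to HLA-B, B2M and TAPBP.

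TAP2 (ENSG00000204267, chromosome 6, 32821833 to 32838739, minus strand) makes the other part of the same transporter, and it moved against TAP1. It fell to 0.721 of its DMSO level in RPE-1 (0.608 to 0.855; log2FC -0.47 ± 0.13, adjusted p 0.000856) and to 0.761 in HCT116 (0.640 to 0.904; log2FC -0.39 ± 0.13, adjusted p 0.00919). The difference between the lines was -0.08, with an interval from -0.43 to 0.27. Both calls were lost with SEs multiplied by 1.5, at adjusted p values of 0.0623 and 0.188. In GENCODE 44, TAP2 lies wholly inside a protein-coding gene of the same strand, ENSG00000250264, that was not analysed here, and how reads were divided between them is not known.

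TAPBP (ENSG00000231925, chromosome 6, 33299694 to 33314284, minus strand), tapasin, rose 1.72-fold in RPE-1 (1.33 to 2.22; log2FC 0.78 ± 0.19, adjusted p 0.000216). In HCT116 its log2FC was 0.08 ± 0.19 with an adjusted p of 0.829. The lines differed by 0.70 ± 0.27 (adjusted p 0.0435), the widest gap of the 9, although the adjusted p was 0.0536 when genes with base means under 10 entered the adjustment.

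ERAP1 (ENSG00000164307, chromosome 5, 96760810 to 96808100, minus strand), the aminopeptidase that trims peptides in the endoplasmic reticulum, rose in both lines. In HCT116 it rose 1.44-fold (1.25 to 1.67; log2FC 0.53 ± 0.11, adjusted p 6.46e-06). In RPE-1 it rose 1.21-fold (1.07 to 1.36; log2FC 0.27 ± 0.09, adjusted p 0.00713). The call in RPE-1 was lost, at a log2FC of 0.19 and an adjusted p of 0.0745, when the median log2FC of genes at base means of 10 or more was taken out. The difference between the lines was -0.26, with an interval from -0.53 to 0.01 and an adjusted p of 0.185. ERAP1 shares 18786 bases with CAST, the gene of the protease inhibitor calpastatin on the other strand, whose log2FC was 0.26 ± 0.09 in RPE-1 (adjusted p 0.0193) and 0.07 ± 0.09 in HCT116 (adjusted p 0.658).

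**Figure D2:**
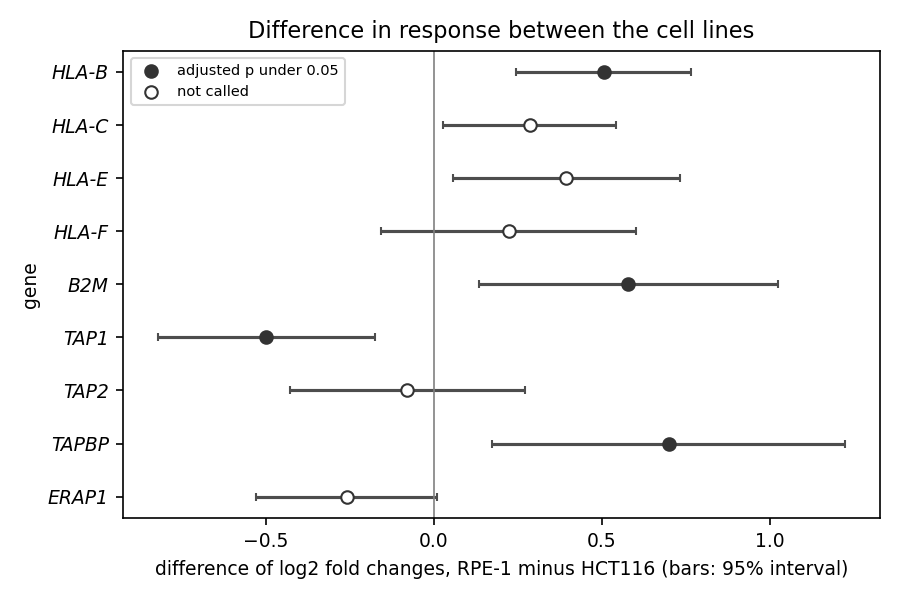
Difference of the log2 fold changes, RPE-1 minus HCT116 (horizontal axis), for the 9 genes, with 95% intervals from the combined standard errors. Filled points passed an adjusted p of 0.05: HLA-B, B2M and TAPBP lie right of 0 and TAP1 lies left of 0 at -0.50.

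TAP1 and TAP2 lie in the class II part of the MHC region, interleaved with PSMB8 and PSMB9, which encode catalytic subunits of the immunoproteasome, the proteasome form that interferon induces. TAP1 and PSMB9 are known to be transcribed away from a shared promoter region. In GENCODE 44 the gene PSMB9 spans all 8608 bases of TAP1 on the other strand, and the authors counted reads by strand. Its outermost start there lies past the end of TAP1, 9680 bases from the TAP1 start. These outer coordinates therefore do not show the shared promoter region. PSMB9 had a log2FC of -0.34 ± 0.17 in RPE-1 (adjusted p 0.112) and fell in HCT116, to 0.364 of its DMSO level (0.261 to 0.508; log2FC -1.46 ± 0.25, adjusted p 3.91e-08). The 2 neighbours thus moved in opposite directions in HCT116, where TAP1 rose most. The lines differed for PSMB9 by 1.12 ± 0.30 (adjusted p 0.0016).

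PSMB8 had log2FCs of 0.18 ± 0.15 in RPE-1 and -0.20 ± 0.44 in HCT116, neither called. Its antisense RNA PSMB8-AS1, which overlaps the end of TAP1, had a base mean of 21.3 and log2FCs of -0.62 ± 0.31 and -1.52 ± 0.78, with adjusted p values of 0.114 and 0.148. Of 16 annotated genes that overlap a member or start within 1000 bases of one on the other strand, 7 were in both comparisons. The 3 not yet named were HLA-F-AS1, with log2FCs of 0.25 ± 0.28 and -0.32 ± 0.29, AL671883.2 inside HLA-B and AC008906.1 inside ERAP1, the last 2 with base means of 6.53 and 4.10, and none of these was called.

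**Figure D3:**
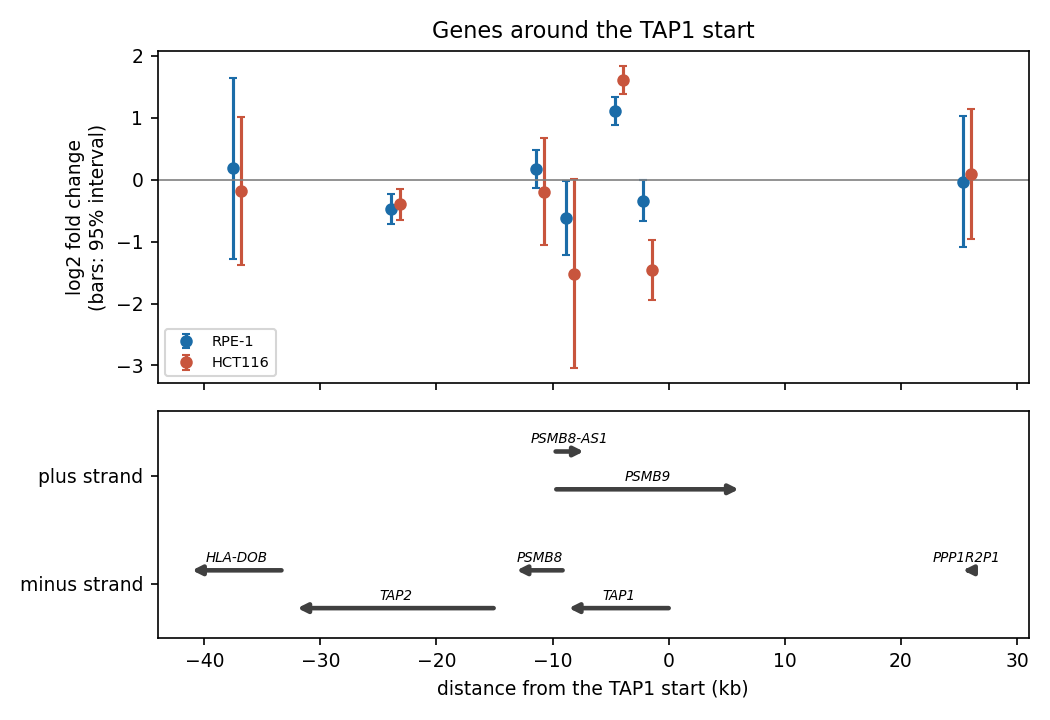
Genes around the TAP1 start, with distance along chromosome 6 in kilobases on the horizontal axis. The upper panel gives log2 fold changes of Nutlin-3a over DMSO with 95% intervals for RPE-1 (blue) and HCT116 (red), each drawn at the gene's middle, and the lower panel the genes as arrows in their direction of transcription. TAP1 is the one gene whose intervals lie above 0 in both lines. The intervals of TAP2 and PSMB9 lie below 0 in both, although PSMB9 was not called in RPE-1.

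The promoters of these genes are known for a compact set of elements, so RefSeq windows (GRCh38.p14) of 250 bases before to 50 after each start were searched on both strands. A window was at hand for 8 of the 9 members, 10 windows in all, and not for HLA-E. The core that interferon regulatory factors (IRFs) bind, AANNGAAA, was found in 9 of the 10 windows, with at least 1 in each of the 8 members, and in 22.8% of the 35116 windows of all genes. CCAAT, the box of NF-Y, was found in 6 of the 10 windows against 34.6% of all, TGACG, the core of the CREB and ATF site, in 4 of the 10 against 24.6%, and the NF-kB site in 6 of the 10 against 11.3%. The p53 decamer was found in none of the 10 against 6.63% of all windows, and a pair of such decamers in none against 0.0285%. A match describes letters only, and a p53 site outside these windows was not looked for.

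The IRF core stretches are shown for 7 genes because every member with a window holds a core; ERAP1 holds 1 core just after the start of one of its windows and an overlapping pair before the start of the other, and neither is shown. Each line reads along the gene's strand, and capitals mark the core or its reverse complement, merged where 2 matches overlap.
HLA-B (chr6:31357316-31357345, minus strand): actcccctgagTTTCACTTcttctcccaac
HLA-C (chr6:31272225-31272254, minus strand): actcccctgagTTTCACTTctcccaacctg
HLA-F (chr6:29723267-29723296, plus strand): tctccccagagTTTCTCTTtctctcccaac
B2M (chr15:44711367-44711396, plus strand): ctctaagaAAAGGAAACTGAAAacgggaaa
TAP1 (chr6:32853817-32853846, minus strand): gcggccgcTTTCGATTTCGCTTtcccctaa
TAP2 (chr6:32838780-32838809, minus strand): ggctggggAAGCGAAAGCGAAAgctgcccg
TAPBP (chr6:33314079-33314108, minus strand): ccctttggaggaAAGTGAAAGTGAAAggag
HLA-B and HLA-C carry the same core letters with the same flank before them, whereas B2M, TAP1, TAP2 and TAPBP carry a pair of overlapping cores. TAP1, which rose in both lines, and TAP2, which fell in both, each hold such a pair. A link between the cores and the changes of these genes was not tested.

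The 30 bases that end in a reversed CCAAT box within 90 bases of the start are shown for the heavy and light chains, because a subunit of the factor that binds this box changed in these data. Capitals mark CCAAT, its reverse ATTGG, and TGACG.
HLA-B (chr6:31357256-31357285, minus strand): TGACGcgtccccacttcccactcccATTGG
HLA-C (chr6:31272168-31272197, minus strand): TGACGcgtccCCAATtcccactcccATTGG
HLA-F (chr6:29723327-29723356, plus strand): taacgcggccccatttctcactcccATTGG
B2M (chr15:44711443-44711472, plus strand): gacggtccctgcgggccttgtcctgATTGG
HLA-B and HLA-C begin this stretch with TGACG, and in B2M the TGACG starts 1 base before it. TAP2, which fell in both lines, holds TGACG too. HLA-F, called in neither line, and TAP1, TAPBP and ERAP1, called higher in RPE-1, hold none in their windows. Whether TGACG or the CCAAT box bears on the changes of these genes was not tested.

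**Figure D4:**
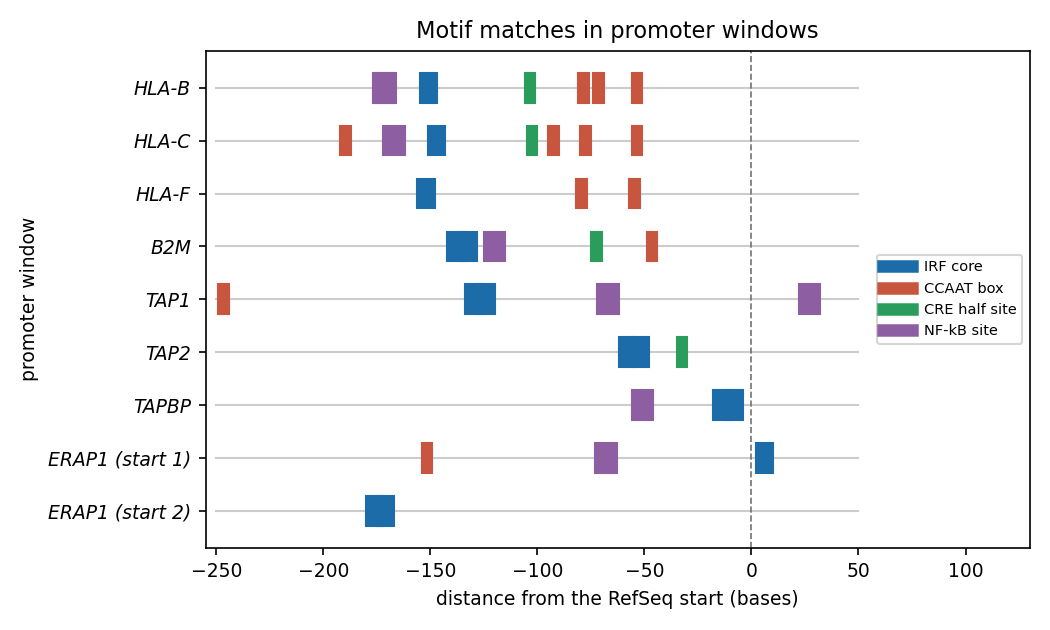
Motif matches in the 9 promoter windows that hold any, with distance from the RefSeq start in bases on the horizontal axis and a dashed line at the start. Coloured blocks are the IRF core (blue), CCAAT (red), TGACG (green) and the NF-kB site (purple), and HLA-B, HLA-C and HLA-F share an IRF core about as far from the start.

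The factors that act on these promoters were described by a list of 16, of which 4 rose and 3 fell in each line. At base means of 100 or more, 29.7% of genes were called higher and 20.8% lower in RPE-1. In HCT116 the shares were 22.4% and 18.4%, and the list was not tested against them. The list had a median log2FC of 0.03 in RPE-1 and 0.17 in HCT116, against 0.09 and 0.06 for all genes with base means of at least 100. NLRC5, the class I coactivator, had log2FCs of 0.22 ± 0.19 and -0.15 ± 0.20 and was called in neither line. IRF1, which binds the IRF core, rose in HCT116 (log2FC 0.62 ± 0.12, adjusted p 6.21e-06) and had a log2FC of 0.02 ± 0.12 in RPE-1, where its sign turned when the median was taken out. By the test of the difference, IRF1 had a lower log2FC in RPE-1, by -0.60 ± 0.17 (adjusted p 0.00428). The part of IRF1 in the changes of the members was not tested.

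STAT2, a carrier of the type I interferon signal, rose in both lines, with log2FCs of 0.85 ± 0.11 and 0.72 ± 0.11. RFX5, a subunit of the RFX complex on MHC promoters, rose too (0.49 ± 0.10 and 0.59 ± 0.10), while its partner RFXAP fell (-0.86 ± 0.16 and -0.77 ± 0.17). NFYB, a subunit of the factor that binds CCAAT, fell in both lines as well, with log2FCs of -0.81 ± 0.13 (adjusted p 1.43e-08) and -0.88 ± 0.14 (adjusted p 3.52e-09). Its partners NFYA (-0.18 ± 0.12 and -0.07 ± 0.12) and NFYC (0.13 ± 0.09 and 0.21 ± 0.09) were called in neither line. Both partners were named after their values were seen. NFKB1, an NF-kB subunit, fell in RPE-1 (-0.32 ± 0.08) and had a log2FC of 0.18 ± 0.08 in HCT116, with an adjusted p of 0.098. The subunits of 1 complex thus did not move together.

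Of 8 chaperones and enzymes that serve loading beside tapasin and ERAP1, 3 rose and none fell in RPE-1 (none with an unadjusted p under 0.05 by DESeq2 either), whereas 1 rose and 2 fell in HCT116. Their median log2FC was 0.23 in RPE-1 and -0.22 in HCT116, where genes at base means of 100 or more had medians of 0.09 and 0.06. Calls among those background genes were 29.7% upward with 20.8% downward for RPE-1, and 22.4% with 18.4% for HCT116. By the test of the difference, 4 of the 8 had a higher and 1 a lower log2FC in RPE-1. That test gave 11.3% and 10.4% such calls over all genes it covered. Whether these 8 genes depart from any of these shares was not tested. PDIA3, the oxidoreductase bound to tapasin in the loading complex, rose in RPE-1 (log2FC 0.38 ± 0.07, adjusted p 2.1e-06) and had -0.16 ± 0.08 in HCT116 (adjusted p 0.115). CALR, the chaperone that holds the glycan of the heavy chain, rose in RPE-1 (0.40 ± 0.11, adjusted p 0.00112) and had -0.23 ± 0.11 in HCT116 (adjusted p 0.103). The differences were 0.54 ± 0.11 for PDIA3 and 0.63 ± 0.15 for CALR, in the direction of TAPBP.

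TAPBPL, a tapasin relative that edits peptides, rose in RPE-1 (log2FC 1.02 ± 0.22), but its SE of 1.26 in HCT116 leaves the comparison of the lines without a call. GANAB, which trims glycans of new glycoproteins, and HSPA5, a general chaperone of the endoplasmic reticulum, fell in HCT116, with log2FCs of -0.39 ± 0.09 and -0.37 ± 0.12. ERAP2, the aminopeptidase that works beside ERAP1, rose in HCT116 (1.31 ± 0.31, adjusted p 0.000149) and had 0.26 ± 0.22 in RPE-1. Like TAP1, ERAP2 had a lower log2FC in RPE-1, by a difference of -1.05 ± 0.38 (adjusted p 0.0299).

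Peptide supply in the cytosol changed in both directions. Of the 6 immunoproteasome and activator genes, 2 rose and 1 fell in each line, with medians of 0.23 in RPE-1 and 0.06 in HCT116. For comparison, genes at base means of 100 or more were called higher in 29.7% and lower in 20.8% in RPE-1. The HCT116 shares were 22.4% and 18.4%, and these 6 genes were not tested against them. PSMB10, the remaining catalytic subunit, rose in HCT116 (log2FC 1.30 ± 0.45, adjusted p 0.0168) and had 0.83 ± 0.35 in RPE-1, with an adjusted p of 0.0501. PSME1 and PSME2, subunits of the activator that opens the proteasome, rose in RPE-1 (0.29 ± 0.10 and 0.47 ± 0.10) and had -0.09 ± 0.10 and 0.24 ± 0.10 in HCT116, not called. PSME3, a nuclear activator subunit, went the other way, with a fall in RPE-1 (-0.17 ± 0.05) and a rise in HCT116 (0.21 ± 0.05). Among the 3 constitutive catalytic subunits, PSMB5 rose in both lines (0.21 ± 0.07 and 0.28 ± 0.07) and the other two were not called.

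Peptidases of the cytosol and endosome destroy or trim peptides. Of 7 such genes, none rose and 3 fell in RPE-1, whereas 2 rose and none fell in HCT116, and both counts of none were the same at an unadjusted p under 0.05 by DESeq2. Their median log2FC was -0.06 in RPE-1 and -0.07 in HCT116, against 0.09 and 0.06 for genes at base means of 100 or more. Upward calls made up 29.7% of that background for RPE-1 and 22.4% for HCT116, and downward calls 20.8% and 18.4%. With only 7 genes, these counts were not tested against such shares. THOP1, a peptidase known to destroy class I peptides, fell to 0.438 of its DMSO level in RPE-1 (0.400 to 0.479; log2FC -1.19 ± 0.07, adjusted p 4.09e-70) and had a log2FC of -0.10 ± 0.06 in HCT116 (adjusted p 0.279). The difference of -1.09 ± 0.09 had an adjusted p of 3.97e-30. TPP2 and BLMH also fell in RPE-1 (-0.49 ± 0.14 and -0.48 ± 0.14), while NPEPPS and LNPEP rose in HCT116 (0.53 ± 0.09 and 0.37 ± 0.13).

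Calls among the interferon reporters went in both directions. Of 10 genes that report an interferon response, 2 rose and 1 fell in RPE-1, and 3 rose and 1 fell in HCT116. ISG15, a ubiquitin-like modifier, rose 2.16-fold in RPE-1 (log2FC 1.11 ± 0.20) and 4.11-fold in HCT116 (2.04 ± 0.19), and IFIT2 rose in both lines (0.77 ± 0.25 and 0.97 ± 0.27). OAS3, which makes the messenger that activates RNase L, fell in both, to 0.344 and 0.319 of its DMSO level. Of 7 interferon receptor and kinase genes, IFNGR1 (0.47 ± 0.09) and JAK1 (0.30 ± 0.07) rose in RPE-1 and IFNAR1 rose in HCT116 (0.26 ± 0.10), and no gene of this list fell by DESeq2, with 1 lower in RPE-1 at an unadjusted p under 0.05. The medians of the reporters were 0.20 and -0.09, and those of the receptors and kinases 0.14 and -0.11. Among all genes, 19.3% were called higher and 13.6% lower in RPE-1 (29.7% and 20.8% at base means of 100 or more). In HCT116 the shares were 14.9% and 12.2% (22.4% and 18.4%). The counts of these 2 lists were not tested against such shares.

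Proteins built like class I chains, most of which carry no peptide, were also listed. Of 14 such genes, 6 rose and 1 fell in RPE-1, with a median of 0.67, and 3 rose and 4 fell in HCT116, with a median of -0.14. Of all genes, 19.3% were called higher and 13.6% lower in RPE-1 (29.7% and 20.8% at base means of 100 or more). For HCT116 the shares were 14.9% and 12.2% (22.4% and 18.4%). MR1, which presents vitamin B metabolites, rose in both lines (log2FC 1.46 ± 0.16 and 0.92 ± 0.16), as did PROCR, the endothelial receptor of protein C (1.05 ± 0.16 and 1.69 ± 0.16), and MICA, a ligand of the NKG2D receptor (0.42 ± 0.09 and 0.85 ± 0.10). ULBP2, another NKG2D ligand, rose in RPE-1 (0.96 ± 0.19) and had -0.38 ± 0.20 in HCT116. ULBP1, of the same family, fell in HCT116 (-0.82 ± 0.13) and was not called in RPE-1, where its SE was 0.77. FCGRT, the heavy chain of the neonatal Fc receptor, which needs B2M as class I chains do, rose in RPE-1 (1.57 ± 0.46) and fell in HCT116 (-1.28 ± 0.33).

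Over the 97 genes of all pathway lists that were analysed, 25 rose and 9 fell in RPE-1, and 22 rose and 11 fell in HCT116. The shares of all genes to read this against were, for RPE-1, 19.3% higher and 13.6% lower (29.7% and 20.8% at base means of 100 or more) and, for HCT116, 14.9% and 12.2% (22.4% and 18.4%), and the pooled lists were not tested against them. With the median log2FC of genes at base means of 10 or more taken out, the split in HCT116 became 18 to 17. By the difference between the lines, 15 of 90 genes had a higher and 10 a lower log2FC in RPE-1.

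**Figure D5:**
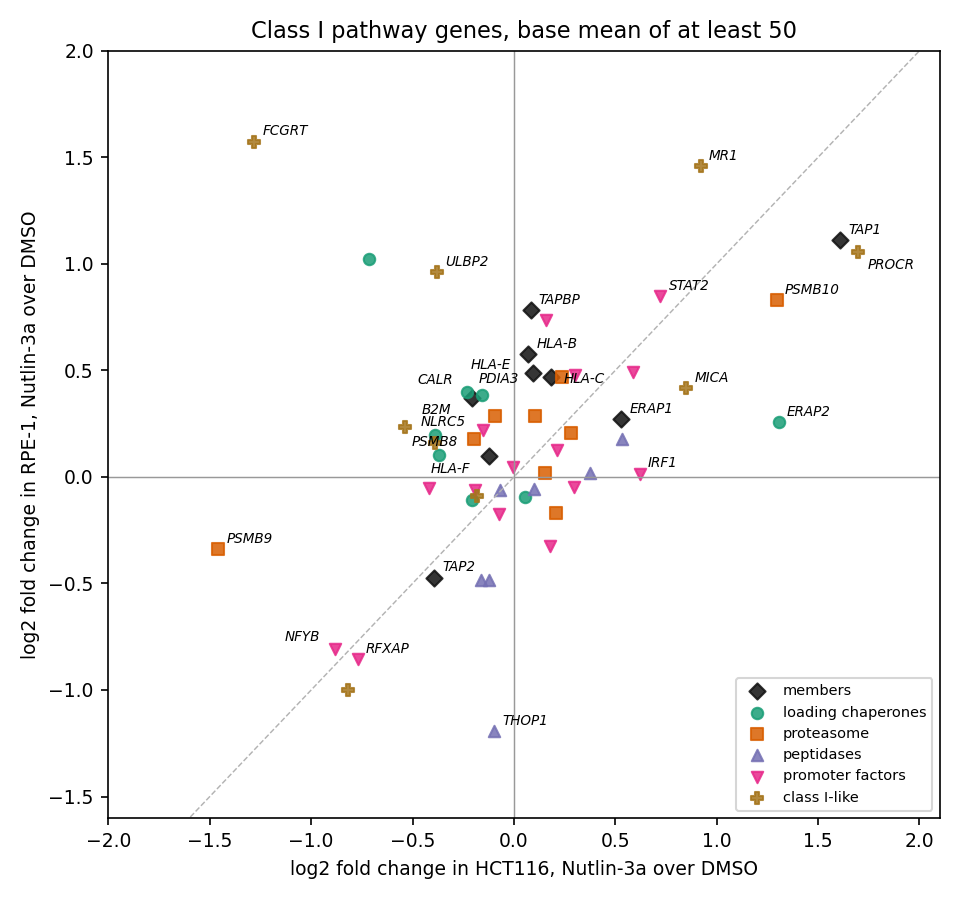
Log2 fold change in RPE-1 (vertical axis) against that in HCT116 (horizontal axis) for the 9 members (black diamonds) and the genes of 5 pathway groups with base means of at least 50; the dashed line marks equal change. TAP1 lies in the upper right below the line, TAP2 in the lower left, and FCGRT and PSMB9 lie far left, FCGRT high at 1.57 in RPE-1.

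Cell type markers could be checked only for change, since no level per line is given. RPE65, RLBP1 and TYR, defining genes of retinal pigment epithelium, were not analysed here. MITF, a regulator of that tissue, rose in RPE-1 (log2FC 0.48 ± 0.11) and fell in HCT116 (-0.45 ± 0.15), and OTX2 rose in RPE-1 (0.80 ± 0.21). Thus 2 of the 6 markers analysed in this list, which also holds the mesenchymal VIM and CDH2, rose there. PMEL, a pigment granule protein, fell in HCT116 (-0.67 ± 0.22), where it was the other of 2 that fell. Of 7 colon epithelium markers, the keratins KRT8 (0.65 ± 0.15 and 0.70 ± 0.15) and KRT18 (0.40 ± 0.12 and 0.31 ± 0.12) rose in both lines. CDH1 rose (0.31 ± 0.08) and EPCAM fell (-0.29 ± 0.08) in HCT116, and CDX2 is listed at exactly 0 in RPE-1. The 4 markers of blood and endothelium analysed had base means of 3.69 to 15.6, against 412 and more for the members, and none was called, at an unadjusted p under 0.05 in the authors' DESeq2 tables either. The part of these markers in the class I results was not tested.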

How the data were processed

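RNA-seq libraries came from RPE-1 hTERT and HCT116 cells, 3 per treatment and line, and groups were taken from the labels. Neither the labels nor the tables say that the HCT116 libraries are separate cultures, so the spread between libraries behind the p-values may be technical. That spread may also include libraries beyond the groups compared. According to the study's methods and the processing notes, the authors cleaned the reads with cutadapt and Trimmomatic 0.39, mapped them to hg38 with Ensembl gene models, kept uniquely mapped reads, counted them by strand with featureCounts and compared treatments within each line with DESeq2 (version 1.32.0 per the labels). The labels describe ribosomal RNA depletion and the methods poly(A) selection.

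The deposited tables hold only the authors' comparisons: log2 values (a log2 fold change with a standard error), a two-sided p-value with its Benjamini-Hochberg adjustment, and a score, the Wald statistic. As a signal, the authors gave the base mean, the normalized count averaged over more libraries than these 12, with the same values in both tables. No values per library were given, so depth is unknown, nothing was refitted and precision rests on the standard errors. Recomputed statistics and adjusted p-values matched the deposited ones.

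Computed here were 95% normal intervals, counts of calls at an adjusted p under 0.05, and the difference between the lines, tested by a two-sided normal p with p-values adjusted by Benjamini-Hochberg over 20764 genes (base mean of 10 or more). This test was tested on simulated data. The members, lists and tests were chosen with earlier results of these data known. The background of genes at base means of 100 or more was added after seeing the data. All members were named, with PSMB8, PSMB9, PSMB10, NLRC5, IRF1, MDM2 and CDKN1A, neighbours overlapping a member or starting within 1000 bases on the opposite strand, and, per list, up to 3 called genes per line and up to 2 for the difference, by adjusted p, at base means of at least 50. Gene coordinates came from GENCODE 44 and promoter windows from RefSeq, both on GRCh38; the authors used another annotation of this build. Python 3.11.15 with pandas 2.3.3, scipy 1.17.1, statsmodels 0.14.6 and matplotlib 3.10.9 was used.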

Additional observations from a re-analysis of the deposited data

Results flagged for a closer look

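The genes below were singled out because their log2FC differed between RPE-1 and HCT116 by the test of the difference itself (RPE-1 minus HCT116, Benjamini-Hochberg adjusted over 20764 genes), a test that called 11.3% of all genes higher and 10.4% lower in RPE-1. Among the members, the difference was 0.51 for HLA-B, 0.58 for B2M, 0.70 for TAPBP and -0.50 for TAP1.

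Genes of the loading chaperones and glycan enzymes with a higher log2FC in RPE-1 were CALR (difference 0.63), GANAB (0.59), PDIA3 (0.54) and HSPA5 (0.47), and ERAP2 had a lower one (-1.05). In the proteasome, the difference was 1.12 for PSMB9, 0.38 for PSME1 and -0.38 for PSME3. Both peptidases singled out, THOP1 at -1.09 and NPEPPS at -0.35, were lower in RPE-1.

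Among signalling genes and promoter factors the difference was 0.41 for JAK1 and 0.35 for IFNGR1, but -0.60 for IRF1 and -0.50 for NFKB1. The interferon reporters ISG15 (-0.93) and DDX58 (-0.62) had a lower log2FC in RPE-1, although DDX58 was called in neither line alone. Of the class I-like genes, FCGRT (2.85) and ULBP2 (1.34) were higher and PROCR (-0.64) and MICA (-0.43) lower. The pseudogene HLA-H differed by 0.73, the class II peptide editor HLA-DMA by 0.69, the intramembrane protease SPPL2A by 0.47 and the marker MITF by 0.93. FCGRT had the widest difference of those named, with opposite calls in the lines.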

How the results depend on the processing

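Both tables combine the replicates, which sets the limit on what could be varied: no library could be left out, no replicate number used as a block and no other normalization tried, and these alternatives were not run. No paired analysis was possible because the tables carry no replicate numbers or values per library. Counting error and depth per library are unknown, and genes such as TAPBPL or ULBP1, with standard errors of 1.26 in HCT116 and 0.77 in RPE-1, could not be compared between the lines with any precision.

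Of 72 counts under alternatives, 44 stayed within 1.5 times, and of 1122 values of single genes, 932 kept their direction and side of the threshold. A limit of 1 on the absolute log2FC left 1 of 6 members higher and 0 of 1 lower in RPE-1, and 1 of 2 higher and 0 of 1 lower in HCT116. Of pathway genes it left 5 and 3 in RPE-1 and 6 and 3 in HCT116. Standard errors multiplied by 1.5 left 0 members lower in either line, and of pathway genes 14 higher with 5 lower (RPE-1) and 11 higher with 7 lower (HCT116). With the median log2FC of genes at base means of 10 or more taken out (0.078 in RPE-1 and 0.0778 in HCT116), 17 pathway genes were lower in HCT116, against 11. The signs of uncalled values turned for LNPEP (-0.0582), IRF1 (-0.0628) and PMEL (-0.0380) in RPE-1 and for HLA-H (-0.0542) and HLA-B (-0.00899) in HCT116.

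For the difference between the lines, an adjusted p under 0.01 left 1 member higher and 0 lower in RPE-1 and 9 and 6 pathway genes. A limit of 1 on the difference left 0 and 0 members and 3 and 2 pathway genes, and standard errors multiplied by 1.5 left 0 and 0 members and 4 and 2 pathway genes. With no limit on base mean, 1 member, HLA-B, was higher. These counts fall by construction of the alternatives, which ask for more; for the median taken out, the cause is the shifted zero point.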

Other observations

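Of 8 ubiquitin ligases and proteases grouped here under class I turnover, 3 rose and none fell in each line by DESeq2 (1 lower in HCT116 at an unadjusted p under 0.05). Their median log2FC was 0.41 in RPE-1 and 0.31 in HCT116, and whether each acts on class I molecules in these cells was not tested. Of all genes at base means of 100 or more, 29.7% were called higher in RPE-1 and 22.4% in HCT116, so a count of 3 in 8 is near the background. MARCHF8, a membrane ubiquitin ligase, rose in both (0.69 ± 0.10 and 0.46 ± 0.10), as did HM13, the signal peptide peptidase that frees the leader peptides HLA-E presents (0.45 ± 0.12 and 0.36 ± 0.12). SYVN1, a ligase of degradation at the endoplasmic reticulum, rose in RPE-1 (0.74 ± 0.26), and TMEM129, a ligase known from viral removal of class I chains, rose in HCT116 (0.90 ± 0.28) and had 0.64 ± 0.27 in RPE-1 with an adjusted p of 0.0595 in the authors' deposited table.

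Class II genes, which serve presentation of outside proteins in immune cells, were low. Of 12 analysed, with base means of 4.70 to 172, HLA-DMA rose in RPE-1 (0.78 ± 0.20) and 1 gene rose in HCT116, HLA-DOA, named after its value was seen (1.15 ± 0.29). HLA-DRB1, HLA-DRB5 and HLA-DQB1 are listed at exactly 0 in RPE-1. Of 6 class I pseudogenes analysed, HLA-H rose in RPE-1 (0.76 ± 0.19) and had 0.02 ± 0.20 in HCT116, and reads of such copies cannot be safely told from those of the genes they resemble.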
